A study of Mus musculus with 4 samples.

Results

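The 51 genes described here encode matrix metalloproteinases (Mmp), ADAMTS proteases (Adamts), the ADAMTS-like proteins (Adamtsl) and the tissue inhibitors of metalloproteinases (Timp). They were chosen by symbol alone, as every row whose name begins with one of those 4 stems followed by a number, out of 24054 gene symbols in the table. The set held 23 Mmp, 19 Adamts, 5 Adamtsl and 4 Timp genes. RNA-seq was performed on soleus muscle of female *mdx* mice on the C57BL/10ScSn background, so both groups lacked normal dystrophin through the same mutation. The treated group had received mouse cardiosphere-derived cells (mCDCs), which are cardiac stromal cells grown from the heart of 1 non-dystrophic mouse and given at passage 5, and the control group had received the culture medium used as vehicle. Infusions into the femoral vein were monthly, began at 8 weeks of age and ended at the 12-month endpoint. There were 2 soleus libraries per group, and the sample records do not state that the muscles of a group came from different mice, so the spread between libraries may be partly technical.

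Matrix metalloproteinases are zinc-dependent enzymes that cut collagens and other matrix proteins outside the cell or at its surface. ADAMTS proteases are secreted relatives that act on proteoglycans, procollagens and von Willebrand factor, whereas ADAMTS-like proteins share their ancillary domains but lack the protease domain. TIMPs bind the active site of these enzymes and block it, and each TIMP has its own range of targets. In dystrophic muscle these genes are known for the turnover of scar matrix and for expression in fibroblasts, macrophages and vessels as well as in muscle fibers.

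Library totals ran from 22481391 to 27187425 expected counts. Levels are given in CPM, the usual unit of counts relative to library size, with library sizes corrected by the TMM factors of edgeR (trimmed mean of M-values). Following the thresholds of the study, genes that differed by more than 1.5-fold and had an unadjusted p under 0.05 in edgeR's quasi-likelihood test were called, and 13652 genes were tested. No gene in the table had an adjusted p under 0.05 with that test (947 had an unadjusted p under 0.05), against 48 with DESeq2, 58 with edgeR's exact test and 66 with its likelihood ratio test. For one gene, permuting 2 against 2 libraries gives an exact p of 0.333 at the lowest. Where a library was left out, as in some fits below, its group had no spread of its own, so calls from those fits are weak. On the leading principal component, mCDC replicate 2 at -33.1 and vehicle replicate 2 at 29.9 stood apart from mCDC replicate 1 at -2.88 and vehicle replicate 1 at 6.08. Slow fiber and other soleus markers such as Myh7, Tnnt1 and Ckm summed to between 127300 and 146500 CPM in every library, and none of the 10 was called.

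The largest differences among these genes were those of 3 inhibitors, Timp4, Timp1 and Timp3. Relative to vehicle, Timp3 and Timp4 were lower in muscles that had received mCDCs, and Timp1 was called higher. The gelatinase Mmp2 was called lower, and no other protease was called (a fit with the replicate number as a block also called Adamts7 lower, at -0.83). Of the 51 genes, 31 passed the filter on low counts. Of these 31, 3 were called lower (9.68%) and 1 higher (3.23%), against 2.74% and 1.26% of all genes tested. The other 27 were not called. The median log2 fold change of the 31 genes was -0.13 and that of all genes tested was -0.01, and 21 of the 31 had a negative value (67.7%, against 51.6% of all genes tested). By class, the median was -0.69 for the 4 Timp, -0.36 for the 5 Adamtsl, -0.08 for the 13 Adamts and -0.07 for the 9 Mmp genes. The libraries of the groups did not overlap for 12 of the 31, with both mCDC libraries below both vehicle libraries for 9 and above them for 3. Among all genes tested, 19.5% lay below and 19.2% above in that way. When a difference of over 1.5-fold was also required, 7 of the 31 lay below and 1 above, against 5.29% and 1.82% of all genes tested.

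**Figure D1:**
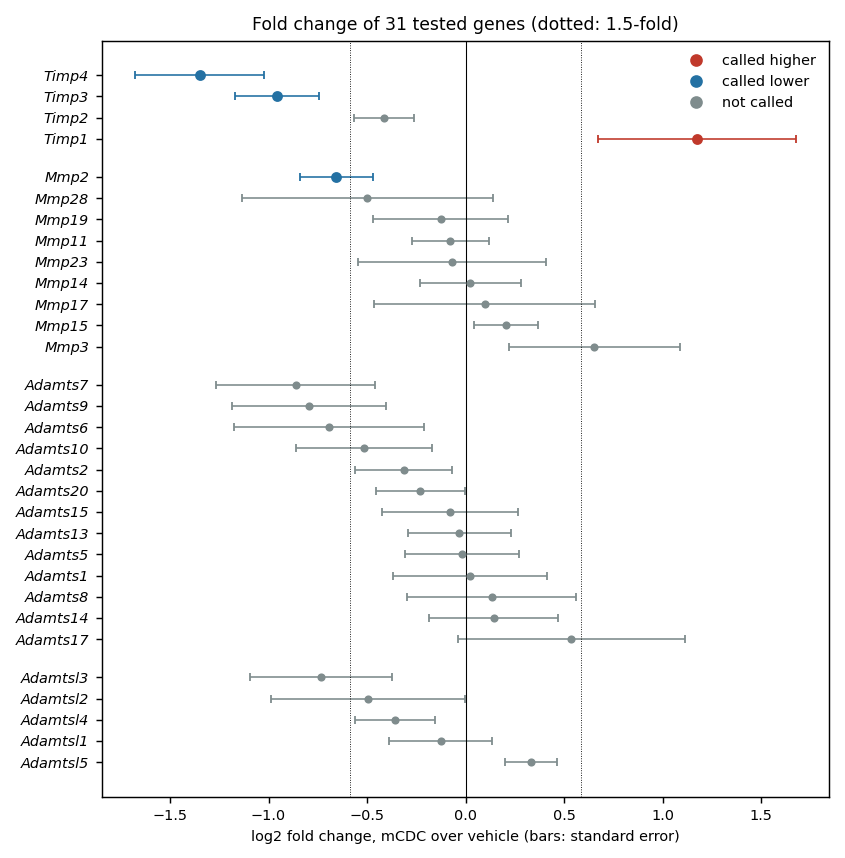
Log2 fold change of mCDC over vehicle for the 31 tested genes, by gene class, with standard errors as bars and dotted lines at 1.5-fold. Timp4, Timp3 and Mmp2 (blue) were called lower and Timp1 (red) higher; the 27 grey genes were not called.

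Timp3 encodes an inhibitor that stays bound to the extracellular matrix and blocks ADAM and ADAMTS proteases as well as matrix metalloproteinases. It had 32.2 and 42.9 CPM in mCDC replicates 1 and 2 and 59.8 and 86.0 CPM in vehicle replicates 1 and 2. Both mCDC libraries were below both vehicle libraries, and vehicle replicate 2 was the highest. The means were 37.6 ± 7.6 CPM in mCDC muscles and 72.9 ± 18.5 CPM in vehicle muscles (SD, n = 2), a log2 fold change of -0.96 (standard error, SE, 0.21, unadjusted p = 0.0021, adjusted p = 0.560 by the quasi-likelihood test of edgeR). When single libraries were left out the value ran from -1.19 to -0.67, and Timp3 was called each time. Timp3 lies at chr10:86300372-86349506 on GRCm38, inside the gene Syn3, which is on the opposite strand, and 1733 bases of their exons overlap. The strand setting of the counting is not given in the sources used here, so reads from the shared bases could be assigned to either gene. Syn3 itself had between 13.0 and 33.0 expected counts per library, against 849 to 2364 for Timp3, and its mCDC libraries were also below its vehicle libraries without being called, at a log2 fold change of -0.77. Timp4 lies in the same way inside Syn2, at chr6:115241892-115252205, and shares 90 exon bases with it on the opposite strand, and Timp1 lies inside Syn1, at chrX:20870166-20874735, with no shared exon bases.

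Timp4, an inhibitor known mainly from heart and fat, had 3.94 and 2.88 CPM in mCDC replicates 1 and 2 and 6.18 and 11.3 CPM in vehicle replicates 1 and 2. The groups did not overlap, and vehicle replicate 2 was again the highest library. The means were 3.41 ± 0.75 CPM and 8.73 ± 3.60 CPM (SD, n = 2), a log2 fold change of -1.35 (SE 0.33, unadjusted p = 0.0034, adjusted p = 0.567 by the quasi-likelihood test of edgeR). Without vehicle replicate 2 it was -0.85, and without vehicle replicate 1 it was -1.72, and the gene stayed called in both cases. The 7 adipocyte markers tested, which include Adipoq and Fabp4, all had negative log2 fold changes with a median of -0.28, and none was called. Their summed level was 153 and 150 CPM in the mCDC libraries against 189 and 218 CPM in the vehicle libraries, but Fabp4 alone made up most of it, with 115 and 114 CPM against 124 and 199.9 CPM. The other 6 markers were all lowest in vehicle replicate 2, the library in which Timp4 was highest. In bulk muscle, fewer cells of a type and less RNA per cell cannot be told apart.

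Timp1, a secreted inhibitor that is induced in injured and inflamed tissue, had 4.09 and 13.1 CPM in mCDC replicates 1 and 2 and 2.82 and 4.69 CPM in vehicle replicates 1 and 2. Only mCDC replicate 2 stood out. The level in mCDC replicate 1 lay between those of the vehicle libraries, so the groups overlapped. The log2 fold change was 1.17 (SE 0.50, unadjusted p = 0.0477, adjusted p = 0.713 by the quasi-likelihood test of edgeR), with means of 8.58 ± 6.35 CPM and 3.76 ± 1.32 CPM (SD, n = 2). Without mCDC replicate 2 the log2 fold change was 0.12, and without mCDC replicate 1 it was 1.79. The call was also lost without vehicle replicate 1, at 0.86, and without vehicle replicate 2, at 1.59, where the p from the same test was 0.223 and 0.0577. With no filter on low counts, or at least 10 counts required in every library, the value stayed at 1.17 and the edgeR p was 0.064 and 0.0509. Cd68, a macrophage marker, was high in the same library, at 15.4 CPM in mCDC replicate 2 against 2.71 to 4.15 CPM in the other 3. Other macrophage markers were mixed in that library. Itgam and Cd14 were also highest there, at 1.87 and 1.10 CPM. Csf1r, Lyz2 and Emr1 were lowest there, at 3.93, 9.23 and 0.37 CPM, and C1qa, C1qb and Mrc1 lay between. Of the 9 macrophage markers tested, Cd68 was called higher and Csf1r lower, against 1.26% and 2.74% of all genes tested. Cd68 was at 0.27 and not called without mCDC replicate 2, and its call was also lost without either vehicle library, while Csf1r was at -0.50 without mCDC replicate 2 and -0.30 without vehicle replicate 2 and not called in either case. Neither was called by DESeq2, nor was Csf1r without a filter on low counts or under the replicate block. The sum of the list was 45.7 and 52.7 CPM in the mCDC libraries against 36.2 and 67.9 CPM in the vehicle libraries. Cd68 made up 15.4 of the 52.7 CPM in mCDC replicate 2. The part of macrophages in the Timp1 level was not tested.

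Timp2, which inhibits Mmp2 and also takes part in its activation at the cell surface, had 49.3 and 39.6 CPM in the mCDC libraries against 60.6 and 57.9 CPM in the vehicle libraries. Both mCDC libraries were below both vehicle libraries. The log2 fold change was -0.41 (SE 0.15, unadjusted p = 0.0272, adjusted p = 0.705 by the quasi-likelihood test of edgeR), under the 1.5-fold limit. Per kb of transcript, the scale on which levels of different genes can be compared, the 4 inhibitors together came to 25.5 and 35.1 CPM per kb in the mCDC libraries against 33.3 and 41.2 CPM per kb in the vehicle libraries, and these sums overlapped. The shares of this sum did not overlap between the groups for Timp1, Timp3 and Timp4. These shares are tied to one another. The high Timp1 level of mCDC replicate 2, at 14.8 CPM per kb, lowers the shares of the other inhibitors in that library. Timp1 took 18.2% and 42.2% of it in the mCDC libraries against 9.59% and 12.9% in the vehicle libraries, and Timp3 took 26.8% and 25.9% against 38.0% and 44.2%. Timp4 took 2.82% and 1.49% against 3.37% and 4.98%, while Timp2, with 52.2% and 30.4% against 49.0% and 37.9%, overlapped.

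**Figure D2:**
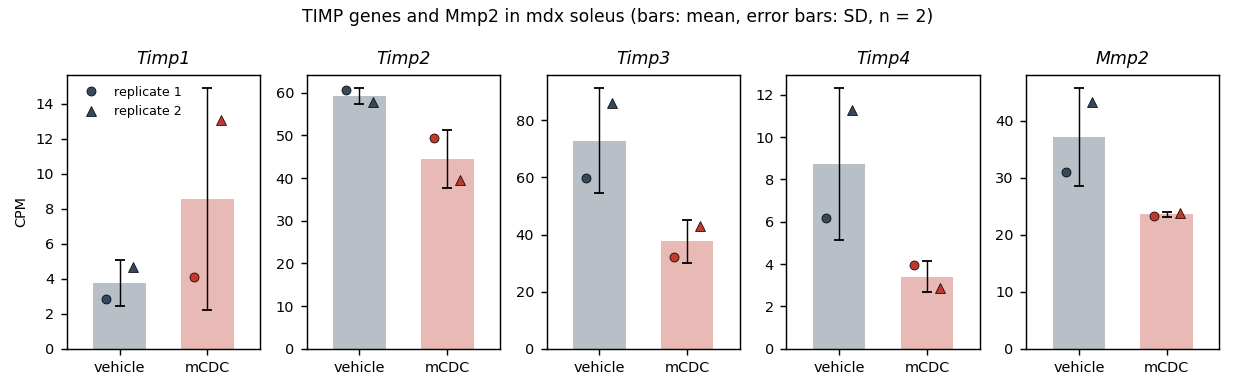
CPM of the 4 Timp genes and Mmp2 in each library, with bars for the group mean, error bars for the SD (n = 2) and symbols for replicates 1 and 2. The mCDC points lie below the vehicle points for Timp2, Timp3, Timp4 and Mmp2, while for Timp1 only mCDC replicate 2, at 13.1 CPM, lies above the rest.

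The promoters of the 3 called inhibitors are printed because these genes were called in opposite directions. Each run is the 250 bases before the RefSeq start site on GRCm38.p6, written 5′ to 3′, and capitals mark the motif letters searched for. These were TGANTCA (the AP-1 site), TGAGTAA (a variant of that site), TATAAA (the TATA box) and GGGCGG (the GC box), on both strands from 250 bases before to 50 bases after the start.
Timp1, chrX:20869916-20870165, plus strand: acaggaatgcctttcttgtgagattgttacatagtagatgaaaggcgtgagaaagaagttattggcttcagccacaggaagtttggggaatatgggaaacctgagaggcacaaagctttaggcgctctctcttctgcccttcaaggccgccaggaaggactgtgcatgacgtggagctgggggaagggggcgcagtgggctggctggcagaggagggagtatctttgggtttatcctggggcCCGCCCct
Timp3, chr10:86300162-86300411, plus strand: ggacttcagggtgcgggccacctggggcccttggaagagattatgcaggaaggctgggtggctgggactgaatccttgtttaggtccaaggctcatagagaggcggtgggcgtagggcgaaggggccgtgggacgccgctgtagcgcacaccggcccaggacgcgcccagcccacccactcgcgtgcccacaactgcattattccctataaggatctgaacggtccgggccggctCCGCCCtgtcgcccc
Timp4, chr6:115252206-115252455, minus strand: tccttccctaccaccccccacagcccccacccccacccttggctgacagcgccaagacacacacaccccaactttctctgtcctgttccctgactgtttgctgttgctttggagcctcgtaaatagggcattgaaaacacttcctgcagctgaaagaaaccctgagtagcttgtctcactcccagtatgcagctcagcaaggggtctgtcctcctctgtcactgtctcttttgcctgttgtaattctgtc
Timp1 held a GC box 8 bases before the start and TGAGTAA 26 bases after it, the latter in the stretch printed next.
Timp1 after the start, chrX:20870181-20870209, plus strand: cggtgggtggaTGAGTAAtgcgtccagga
Timp3 held GC boxes 15 bases before and 13 bases after the start, and Timp4 held none of the 4 motifs in this window. Among all 32851 RefSeq promoters over the same window, 2.68% held TGAGTAA, 35.7% held a GC box, 13.6% held TATAAA and 7.81% held TGANTCA. Among the 36 of the 51 genes with an entry, TGAGTAA occurred only in Timp1.

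Among the metalloproteinases, Mmp2 (gelatinase A, which digests denatured collagen and basement membrane collagen) had the highest level per kb. It lies at chr8:92827291-92853420. It had 23.3 and 23.9 CPM in mCDC replicates 1 and 2 and 31.1 and 43.3 CPM in vehicle replicates 1 and 2. The mCDC libraries were nearly equal and both below the vehicle libraries. The means were 23.6 ± 0.45 CPM and 37.2 ± 8.65 CPM (SD, n = 2), a log2 fold change of -0.66 (SE 0.19, unadjusted p = 0.0076, adjusted p = 0.619 by the quasi-likelihood test of edgeR). Without vehicle replicate 2 it was -0.40 and no longer called. Mmp2 is known from fibroblasts, and the 10 fibroblast markers tested all had negative log2 fold changes, with a median of -0.50. Pdgfra, Col1a2, Lum and Pdgfrl were called lower, against 2.74% of all genes tested. The sum of that list was 361 and 327 CPM in the mCDC libraries, 351 CPM in vehicle replicate 1 and 595 CPM in vehicle replicate 2, so that the high value belonged to a single library. Without vehicle replicate 2 none of these 4 markers was called, with log2 fold changes of -0.23 for Pdgfra, -0.31 for Col1a2, -0.47 for Lum and -0.69 for Pdgfrl, and Pdgfrl was not called whichever library was left out. Pdgfra also lost its call without a filter on low counts, under the replicate block and after correction for length and GC content, Pdgfrl under the replicate block and with the 4 other tests, and Col1a2 after that correction. The part of fibroblast number in the Mmp2 and Timp3 differences was not tested.

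None of the other 8 tested Mmp genes was called. Mmp14, the membrane-bound enzyme that activates Mmp2, had 9.89 and 9.05 CPM in the mCDC libraries against 7.02 and 11.6 CPM in the vehicle libraries, and the groups overlapped with a log2 fold change of 0.02 (SE 0.26). Mmp15, a membrane-bound relative, had 32.1 and 26.3 CPM against 26.4 and 24.2 CPM, a log2 fold change of 0.21 (SE 0.16). Mmp11, a stromelysin of stromal cells, had 7.01 and 7.86 CPM against 7.56 and 8.11 CPM, and its log2 fold change was -0.08 (SE 0.20). These 3 genes thus lay within the spread between libraries. Mmp3, a stromelysin that cuts proteoglycans and activates other metalloproteinases, had 50 and 43 counts in the mCDC libraries against 18 and 48 in the vehicle libraries. At 1.89 and 1.96 CPM against 0.69 and 1.75 CPM, both mCDC libraries were above both vehicle libraries, but only vehicle replicate 1 was far below the rest. The log2 fold change was 0.65 (SE 0.44, unadjusted p = 0.172 by the quasi-likelihood test of edgeR), and it was 0.15 without vehicle replicate 1 and 1.48, and called, without vehicle replicate 2. Mmp17, Mmp19, Mmp23 and Mmp28 had log2 fold changes of 0.10, -0.13, -0.07 and -0.50.

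Many metalloproteinases that are known from inflamed tissue were close to the limit of detection. The 20 genes that did not pass the filter had at most 13 counts in any library. They were 14 Mmp and 6 Adamts genes, and Mmp1a, Mmp1b, Mmp7, Mmp10 and Mmp20 had 0 counts in all 4 libraries, which allows up to 3 counts or 0.109 to 0.137 CPM per library (counting error only). Mmp9, the gelatinase of neutrophils and macrophages, had 4 and 2 counts in the mCDC libraries against 4 and 7 in the vehicle libraries. Mmp12, the macrophage elastase, had 3 counts in each of 3 libraries and 13 in vehicle replicate 2. Of the collagenases, Mmp8 had 2 and 2 counts against 6 and 1, and Mmp13 had 0 and 5 counts against 5 and 2. Adamts3, Adamts12, Adamts16, Adamts18 and Adamts19 had between 0 and 8 counts, and Mmp16, Mmp21, Mmp24, Mmp25 and Mmp27 between 0 and 4. At this depth no difference could be detected for these genes. Of the neutrophil markers, Mpo and Camp had 0 counts in every library, and the list summed to 0.985 and 1.005 CPM in the mCDC libraries against 0.725 and 1.855 CPM in the vehicle libraries.

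Of the 51 genes, 10 lie together within chr9:7272514-7699585 on GRCm38, and 9 of these 10 were among the genes that did not pass the filter. Mmp3 was the exception. The AP-1 letters TGANTCA were found in the promoters of 8 of the 36 genes with an entry, and all 8 belong to this run of genes on chromosome 9. They are printed because Mmp3 and 7 of the 9 genes of the run that did not pass the filter share them. Mmp8 and Mmp27, the rest of the run, have an entry without these letters. Each line is a window of 27 bases on GRCm38.p6 from before the RefSeq start site, 5′ to 3′ on the strand of the gene, with the AP-1 letters in capitals.
Mmp13, chr9:7272469-7272495, plus strand: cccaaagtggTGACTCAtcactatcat
Mmp12, chr9:7347320-7347346, plus strand: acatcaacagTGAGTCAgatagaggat
Mmp1b, chr9:7388103-7388129, minus strand: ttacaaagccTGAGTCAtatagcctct
Mmp3, chr9:7445766-7445792, plus strand: gaagcaattaTGAGTCAgttttcgggt
Mmp1a, chr9:7464058-7464084, plus strand: ttgtcaaccaTGAGTCAcatagcctct
Mmp10, chr9:7502269-7502295, plus strand: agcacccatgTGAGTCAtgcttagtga
Mmp20, chr9:7628126-7628152, plus strand: atttgagacaTGAATCAtcacttacag
Mmp7, chr9:7692017-7692043, plus strand: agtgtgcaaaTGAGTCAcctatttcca
In Mmp3 the letters began 46 bases before the start site, in Mmp13 35 bases and in Mmp20 95 bases. Mmp20 matched only through the wider middle base, with TGAATCA, while the other genes held TGAGTCA or TGACTCA. The match is a description of letters, and 7.81% of all promoters hold them. Mmp3 is similar to its neighbours in part, with 11.4% of its 31-base stretches found in another gene of the table as well, and reads from those stretches could be shared between genes.

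**Figure D3:**
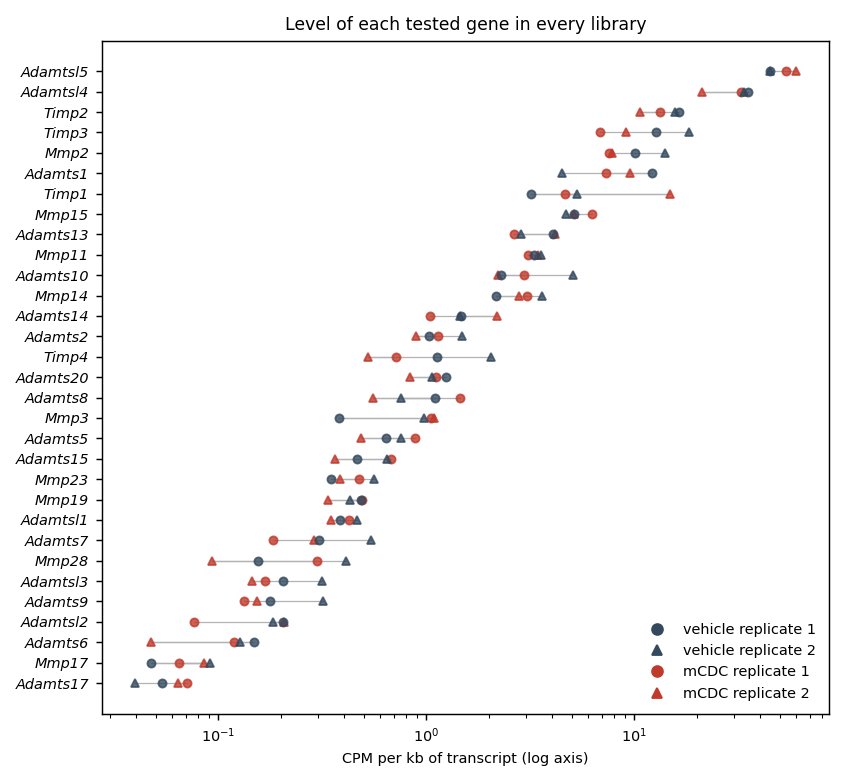
CPM per kb of transcript on a log axis for the 31 tested genes, ordered by mean, with circles and triangles for replicates 1 and 2 of vehicle (dark) and mCDC (red) muscles. Adamtsl5 and Adamtsl4 are the highest, at means of 50.8 and 30.6 CPM per kb, and from Timp2 down most neighbours overlap.

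Per kb of transcript, the highest levels belonged to genes without protease activity. Adamtsl5, a fibrillin-binding ADAMTS-like protein, had a mean of 50.8 CPM per kb over the 4 libraries, Adamtsl4, which also binds fibrillin microfibrils, 30.6, Timp2 14.0 and Timp3 11.7 CPM per kb. The range over libraries separated Adamtsl5 from Adamtsl4 and Adamtsl4 from Timp2. From Timp2 downward, neighbours in the order did not differ beyond their range over libraries, except between Mmp15 and Adamts13. Of the proteases, Mmp2 had 9.87, Adamts1 8.37 and Mmp15 5.31 CPM per kb, and the other tested proteases were at or below 3.42 CPM per kb.

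No Adamts gene was called among the 13 tested. Adamts1, which cuts versican and other proteoglycans, had 35.7 and 46.7 CPM in mCDC replicates 1 and 2 and 59.3 and 21.9 CPM in vehicle replicates 1 and 2. The vehicle libraries were the highest and the lowest of the 4, and the log2 fold change was 0.02 (SE 0.39). It was 0.92, and called, without vehicle replicate 1 and -0.53 without vehicle replicate 2. Adamts10, a fibrillin-associated protease, had 12.1 and 9.14 CPM in the mCDC libraries against 9.43 and 20.9 CPM in the vehicle libraries, with only vehicle replicate 2 high, and a log2 fold change of -0.51 (SE 0.35). It was -0.97 without vehicle replicate 1 and 0.17 without vehicle replicate 2. Adamts13, which cuts von Willebrand factor, had 11.9 and 18.7 CPM against 18.3 and 12.9 CPM and overlapped, with a log2 fold change of -0.03 (SE 0.26).

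The aggrecanase Adamts5 had 9.51 and 5.25 CPM in the mCDC libraries against 6.87 and 8.15 CPM in the vehicle libraries, a log2 fold change of -0.02 (SE 0.29). Its partner Adamts4 did not pass the filter, with 9 and 5 counts against 6.02 and 8.85. For the procollagen-processing enzymes Adamts2 and Adamts14 the log2 fold changes were -0.31 and 0.14. For 3 low-level members of the family the groups did not overlap and the fold was over 1.5, but the test was not passed. Adamts7 had 26 and 34 counts in the mCDC libraries against 43 and 80 in the vehicle libraries, a log2 fold change of -0.86 (SE 0.40, unadjusted p = 0.0648 by the quasi-likelihood test of edgeR). Adamts7 was called without mCDC replicate 2 and without vehicle replicate 1, at -1.21 in both cases, but was at -0.55 without mCDC replicate 1 and -0.39 without vehicle replicate 2. Adamts9, a versican-cleaving enzyme, had 28 and 27 counts against 37 and 70, at -0.80 (SE 0.39, unadjusted p = 0.0759 from the same edgeR test). Its value was -1.15, and called, without vehicle replicate 1 and -0.31 without vehicle replicate 2. Adamts6 had 24 and 8 counts against 30 and 27, at -0.69 (SE 0.48, unadjusted p = 0.190 from the same edgeR test), and moved to -1.53 without mCDC replicate 1 and -0.22 without mCDC replicate 2, in neither case called. Adamts8, Adamts15, Adamts17 and Adamts20 ran from -0.23 to 0.54.

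None of the 5 ADAMTS-like genes was called. Adamtsl5 had 218.7 and 246.4 CPM in the mCDC libraries against 184.4 and 185.0 CPM in the vehicle libraries. Both mCDC libraries were above both vehicle libraries, and the log2 fold change of 0.33 (SE 0.13, unadjusted p = 0.0355, adjusted p = 0.713 by the quasi-likelihood test of edgeR) was under the 1.5-fold limit. Adamtsl4 had 131.6 and 85.1 CPM against 141.6 and 136.3 CPM, with mCDC replicate 2 low and mCDC replicate 1 near the vehicle libraries, and its log2 fold change was -0.36 (SE 0.20). Without mCDC replicate 1 it was -0.71 and called, and without mCDC replicate 2 it was -0.08. Adamtsl3 had 32 and 23 counts against 39 and 63, with no overlap in CPM, and a log2 fold change of -0.74 (SE 0.36, unadjusted p = 0.0754 by the quasi-likelihood test of edgeR). It was at -1.01, and called, without vehicle replicate 1 and at -0.39 without vehicle replicate 2. Adamtsl1 had 3.33 and 2.74 CPM against 3.01 and 3.64 CPM and overlapped. The log2 fold changes of Adamtsl1 and Adamtsl2 were -0.13 and -0.49.

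**Figure D4:**
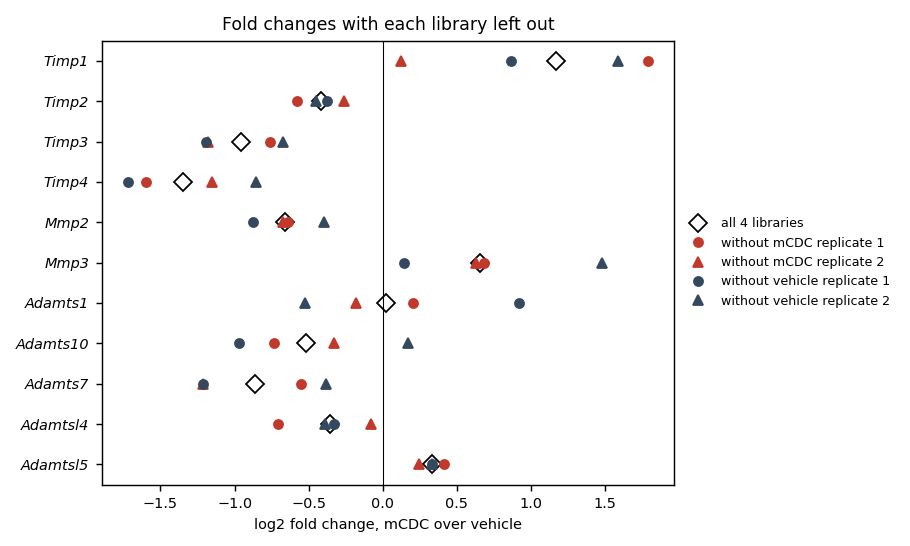
Log2 fold change of mCDC over vehicle for 11 of the genes with all 4 libraries (diamonds) and when single libraries were left out (other symbols). Timp3, Timp4 and Mmp2 stay below 0 each time, Timp1 falls to 0.12 without mCDC replicate 2, and Adamts1 and Adamts10 change sign.

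Vehicle replicate 2 was the highest of the 4 libraries for 14 of the 31 tested genes (45.2%, against 29.4% of all genes tested), and mCDC replicate 2 was the lowest for 14 (45.2%, against 28.7%). Summed per kb, the Mmp genes came to 22.5 and 21.4 CPM per kb in the mCDC libraries against 22.4 and 28.7 CPM per kb in the vehicle libraries, and the Adamts genes to 19.9 and 21.95 against 25.3 and 19.7 CPM per kb. The groups overlapped for both sums. The Adamtsl sum did not overlap, at 86.6 and 81.8 CPM per kb in the mCDC libraries against 80.8 and 79.8 CPM per kb in the vehicle libraries. Adamtsl5 alone made up most of it, with 53.3 and 60.0 against 44.9 and 45.1 CPM per kb. The other 4 Adamtsl genes all had negative log2 fold changes.

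Substrates and partners of these enzymes were counted from lists chosen by function. For comparison with these lists and those below, 2.74% of all genes tested were called lower and 1.26% higher. Of 11 tested fibrillar and network substrates, Col1a2, Col6a1 and Fn1 were called lower and none higher, at -0.61, -0.62 and -0.73. All 3 calls were lost without vehicle replicate 2, where the values were -0.31, -0.19 and -0.43, and also without mCDC replicate 2, where they were -0.54, -0.48 and -0.52. Col6a1 was also not called with the replicate number as a block, at -0.58, nor Col1a2 after correction for length and GC content, at -0.53. Of 4 tested proteoglycan substrates, Fmod (fibromodulin, a collagen-binding proteoglycan of tendon) was called lower, with 10.3 and 20.8 CPM in the mCDC libraries against 36.1 and 24.7 CPM in the vehicle libraries. Fmod is also on the list of 9 tendon markers, of which 8 were tested. Tnmd, Fmod, Comp and Chad were called lower and Scx higher, and the list summed to 175 and 232 CPM against 247 and 257 CPM. Fmod went from -0.97 to -0.54 without mCDC replicate 1 and to -0.66 without vehicle replicate 1, Chad from -1.02 to -0.68 and -0.69, and neither was called in these cases. Comp lost its call without vehicle replicate 1, at -0.58, while Tnmd and Scx were called whichever library was left out. The part of tendon tissue in the matrix differences was not tested.

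The plasminogen activators Plau and Plat, whose product plasmin can activate metalloproteinases, had log2 fold changes of -0.23 and 0.21 and were not called. Of 10 tested partners in activation, inhibition and clearance, Cd44, a surface receptor that can hold metalloproteinases, was called higher and Papln (papilin, an ADAMTS-like matrix protein) lower. Cd44 overlapped between the groups, was at 0.09 without mCDC replicate 2, and was not called without either vehicle library, with no filter on low counts, with at least 10 counts in every library, or with the replicate number as a block, where it was at 0.73. Papln had 1.02 and 1.23 CPM against 2.29 and 2.11 CPM, a log2 fold change of -0.97 (SE 0.32, unadjusted p = 0.0157 by the quasi-likelihood test of edgeR), and was not called without mCDC replicate 1, at -0.83, or by DESeq2, at -0.96. The inhibitor Reck, the convertase Furin and the clearance receptor Lrp1 were at -0.35, 0.26 and -0.37 and were not called.

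In other protease families, 1 of 10 tested ADAM genes (Adam23, lower) and 1 of 10 cathepsins and partners (Ctsk, lower) were called. None of 4 astacin proteases and partners was called. Of all genes tested, 2.74% were called lower and 1.26% higher. Adam23 was at -1.30, and between -1.34 and -1.27 with a library left out, though not called without mCDC replicate 1. Ctsk, the collagen-cutting cathepsin K, had 4.81 and 5.25 CPM in the mCDC libraries against 6.68 and 11.3 CPM in the vehicle libraries, a log2 fold change of -0.84 (SE 0.28, unadjusted p = 0.0170 by the quasi-likelihood test of edgeR). It was at -0.41 and not called without vehicle replicate 2. Of the other cell type lists, Vwf and Rgs5 were called lower among 10 endothelial and mural markers, Pax7, Myod1 and Myog were called higher among 7 satellite cell and myoblast markers, and 0 of 7 Schwann cell markers were called. Vwf went from -0.90 to -0.55 and was not called without vehicle replicate 2, and Rgs5 was not called without mCDC replicate 2, at -0.54, or after correction for length and GC content, at -0.50. Myod1 went from 0.84 to 0.44 without mCDC replicate 1 and to 0.64 without vehicle replicate 1, and Myog from 1.07 to 0.51 without mCDC replicate 2, and neither was called there. Pax7 was at 0.76 and stayed between 0.65 and 0.88 with a library left out. It was not called without either mCDC library, without vehicle replicate 2, or by DESeq2, which gave 0.77.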

How the data were processed

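The deposited table holds RSEM expected counts per gene for 4 libraries, without normalization between libraries; per the study's methods the authors used Bowtie 2 to align single-end reads against UCSC transcripts before RSEM. The submitters' processing notes list Bowtie2 2.1.0, RSEM 1.2.15 and mm10. The version of the transcript set and the strand setting are not given in the sources used here, and the study's methods and the sample records name different library kits. An expected count need not be whole, and 15.7% of values were not. Counts were rounded and tested across the whole table in R 4.3.3 by the quasi-likelihood F-test of edgeR 4.0.16 (legacy = FALSE) after filterByExpr and TMM scaling, with Benjamini-Hochberg adjustment over 13652 genes. Each SE was obtained as the size of the log2 fold change over the root of its F statistic. Samples were grouped by the treatment in their titles, and no column was left unused. The procedure was tested on simulated data. DESeq2 1.42.0 and other tests, size factors, filters, a replicate block, a length and GC correction (99.1% of tested genes had both values) and left-out libraries were the alternatives.

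Transcript lengths (longest transcript), positions and overlaps came from GENCODE M21 on GRCm38, the build called mm10, where all 51 symbols were found under their own name. Promoters came from RefSeq. Genes named with values are those called, those without overlap and over 1.5-fold, the Timp genes, the 3 highest per kb in each class and 10 well-known proteases. The members, lists and motifs were chosen with earlier results of these data known. A result that rests on a withheld item is not reported here.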

Additional observations from a re-analysis of the deposited data

How the results depend on the processing

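The members called lower were Mmp2, Timp3 and Timp4 in every one of the 9 other tests, size factors, filters and corrections, with Adamts7 added at -0.83 under the replicate block (4 in all). Timp1 stayed at 1.17 but was not called, leaving 0 genes higher, without a filter on low counts or with at least 10 counts in every library. Over alternatives with every library kept, the adjusted p (edgeR or DESeq2) ran from 0.0207 to 0.774 for Timp3 and 0.038 to 0.774 for Timp4. It ran from 0.198 to 0.774 for Mmp2 and 0.54 to 0.774 for Timp1. Timp3 was under 0.05 with DESeq2, the exact test and the likelihood ratio test, and Timp4 with the exact and likelihood ratio tests. Mmp2 and Timp1 were not under 0.05 in any of these alternatives. With the length and GC trend removed Adamts5 was at 0.16 in place of -0.02. The sample titles do not say whether the replicate numbers pair the muscles. The correlation of the deviations of same-numbered samples was -0.0388 over 13652 genes, which cannot show whether they do. The replicate block moved no count of members by over 1.5 times.

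With each library left out in turn, 0 to 1 of the genes were called higher and 2 to 7 lower, the 7 without vehicle replicate 1, and their median ran from -0.48 without mCDC replicate 1 to -0.026 without vehicle replicate 2. Of all genes tested, between 348 and 1107 were called, against 546 with all libraries. Log2 fold changes that changed sign ran from -0.53 to 0.92 for Adamts1, -0.97 to 0.17 for Adamts10, -0.39 to 0.26 for Adamts13, -0.51 to 0.34 for Adamts5, -0.28 to 0.013 for Adamtsl1, -0.16 to 0.0052 for Mmp11 and -0.29 to 0.43 for Mmp14. The cause of these changes was not tested. The 20 genes that did not pass the filter had at most 13 counts in any library, which limits any comparison of them.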
